A study of Mus musculus with 13 samples.

Results

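Neurotrophins and the GDNF family are the main peptide growth factors of peripheral nerve. Transcripts of 9 of these ligands and receptors, Bdnf, Ntf3, Gdnf, Artn, Ngfr, Ntrk2, Gfra1, Gfra2 and Gfra3, were taken by gene symbol from an array study of mouse sciatic nerve. Of the 9, 8 had a named probe set among the 15437 genes tested, and Ntf3 was not analysed here. The study compared BKS mice of the db/db genotype, with both copies of the leptin receptor gene mutated, with db/+ mice, which carry 1 mutated copy and are the nondiabetic control. All mice were 24 weeks old, and the series names db/db as a model of type 2 diabetes and its neuropathy. There were 7 db/+ arrays (samples 101, 103, 104, 105, 106, 404 and 407) and 6 db/db arrays (samples 110, 111, 112, 409, 410 and 411). The values are log2 expression levels from 1-colour arrays, so that a difference of 1 is a doubling of signal. The labels do not state that each sample is a separate animal, so the p-values measure the spread between these samples. A change in a bulk nerve sample can be fewer cells of a type, a different tissue content of the sample or less RNA per cell. These cannot be told apart here.

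Each neurotrophin is secreted as a precursor and binds Trk receptor tyrosine kinases, such as the BDNF receptor TrkB encoded by Ntrk2, and the shared receptor p75, encoded by Ngfr. Ligands of the GDNF family bind a membrane-anchored alpha receptor, and the pair then engages the kinase Ret. GFR-alpha-1 (Gfra1) prefers GDNF, GFR-alpha-2 (Gfra2) prefers neurturin and GFR-alpha-3 (Gfra3) prefers artemin, the product of Artn. In nerve, sensory neurons use these receptors for survival and target innervation, and Schwann cells that lack myelin or have lost their axon make p75 and several of the ligands.

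The arrays differed in their content of neuronal transcripts. The mean log2 level of 13 neuronal markers was between 11.25 and 12.02 on db/+ 101, 103, 104 and 106, between 7.06 and 8.06 on db/+ 105, 404 and 407, and between 6.17 and 6.87 on the db/db arrays. The 4 satellite glia markers had means of 10.97 to 11.43 on the same 4 db/+ arrays, at most 9.29 on the other 3 and 8.77 to 9.69 in db/db. Those 4 arrays are therefore shown apart, and results are also given without them. Schwann cell markers, which define the labelled tissue, had means of 7.28 to 8.93 over all arrays and those of myelinating Schwann cells had means of 9.38 to 11.46. Array medians ran from 8.67 to 8.71 in db/+ and from 8.63 to 8.66 in db/db, so every db/db median was slightly below every db/+ median. Lepr, the mutated gene, fell by 1.42 ± 0.32 (SE) in db/db (limma, Benjamini-Hochberg adjusted p = 0.00659). Every adjusted p below is such a value over all genes. The files do not say which part of Lepr the probe set reads. The sample numbers fall into a series from 101 to 112 and a series from 404 to 411. Both genotypes occur in each series, and the labels do not explain the numbering.

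The calls over all arrays lay among the receptors, of which 3 of 5 fell in db/db nerve, whereas the 3 ligands did not pass. Of the 8 measured genes 3 fell (Ngfr, Gfra1 and Gfra3), 0 rose and 5 did not pass an adjusted p of 0.05 over all genes. In the same test 25.1% of all genes passed, 11.7% lower and 13.4% higher in db/db. The median log2 difference of the 8 genes was −0.69, beside 0.02 over all genes tested. The levels of db/db and db/+ did not overlap for Ngfr and Gfra1, both lower in db/db, and 3.51% of all genes were separated in that direction (9.68% in either). Without the 4 db/+ arrays high in neuronal transcripts, Ngfr, Gfra1 and Artn fell, Bdnf rose and 4 did not pass, where 6.78% of all genes fell and 6.12% rose (12.9% in all). In that set Bdnf was higher on every db/db array and Artn, Ngfr and Gfra1 were lower, as 8.98% and 9.99% of all genes were (19% in all).

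The number series made little difference to which receptors were called when it entered the fit, and more when each series stood alone. With the series as a block over all arrays the same 3 genes fell and 0 rose, where 27.4% of all genes passed, 12.9% lower. In arrays 101 to 112 alone, Gfra1 fell and 7 did not pass, where 18.5% of all genes passed, 8.67% lower. In arrays 404 to 411 alone, with 2 db/+ and 3 db/db arrays, Bdnf and Ntrk2 rose and Artn fell, where 9.1% of all genes passed, 4.93% higher and 4.17% lower. In that small set Bdnf, Gdnf and Ntrk2 were higher without overlap and Artn, Ngfr and Gfra1 lower, but 46.4% of all genes had no overlap there (22% higher and 24.5% lower). With the 4 arrays left out and the series as a block, Bdnf rose and Artn, Ngfr and Gfra1 fell, where 8.95% of all genes rose and 10.4% fell (19.3% in all). Gfra1 was thus called in every set of arrays except 404 to 411.

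**Figure D1:**
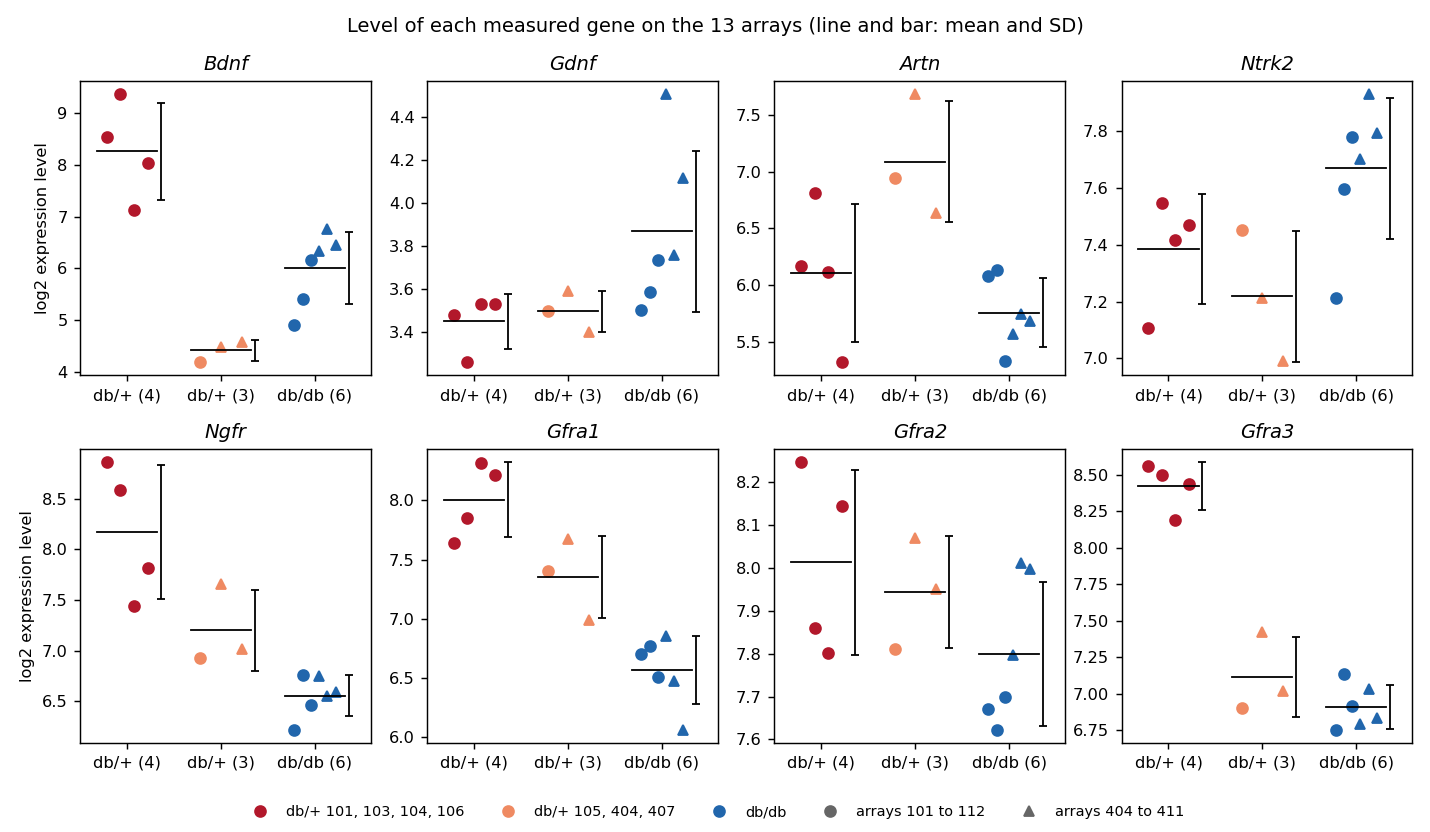
Log2 expression level of each measured gene (vertical axes, 1 scale per panel) on each array, for db/+ 101, 103, 104 and 106, the other 3 db/+ arrays and the 6 db/db arrays; circles are arrays 101 to 112, triangles arrays 404 to 411, lines are means and bars SDs. For Ngfr and Gfra1 the highest db/db point lies below the lowest db/+ point, and Bdnf in db/db lies between the 2 sets of db/+ arrays.

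Sequences at the start sites of 4 genes are printed because their transcripts passed the test over all arrays (Ngfr, Gfra1) or without the 4 arrays (Artn, Bdnf). Each is a RefSeq window of 300 bases in build GRCm38.p6, from 250 bases before to 50 after a start site, written 5′ to 3′ on the gene's strand. Windows were used for 6 of the measured genes, 13 windows in all, of which 7 belonged to Bdnf, a gene with many first exons. Windows on 1 chromosome were left out, and Gfra3, which also passed over all arrays, had no window among the 13. The probe sets do not tell which start was used. Capitals mark CAGCTG (an E-box), GGGCGG or its complement (a GC box), and TCACGTCA (a variant of the cyclic AMP response element), searched on both strands. None of the marked matches overlap in these 4 windows.
Ngfr, chr11:95587649-95587948, minus strand: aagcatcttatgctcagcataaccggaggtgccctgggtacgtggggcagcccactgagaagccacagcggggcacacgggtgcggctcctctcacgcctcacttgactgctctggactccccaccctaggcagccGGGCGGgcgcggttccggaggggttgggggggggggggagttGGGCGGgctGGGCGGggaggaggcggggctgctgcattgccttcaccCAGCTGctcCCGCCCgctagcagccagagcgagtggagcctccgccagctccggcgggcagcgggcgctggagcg
Gfra1, chr19:58455349-58455648, minus strand: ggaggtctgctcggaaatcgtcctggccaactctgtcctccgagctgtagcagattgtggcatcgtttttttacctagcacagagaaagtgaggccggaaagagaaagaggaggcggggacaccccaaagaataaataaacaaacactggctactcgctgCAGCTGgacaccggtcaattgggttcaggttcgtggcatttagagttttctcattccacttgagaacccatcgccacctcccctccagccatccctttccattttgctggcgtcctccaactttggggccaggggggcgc
Artn, chr4:117929714-117930013, minus strand: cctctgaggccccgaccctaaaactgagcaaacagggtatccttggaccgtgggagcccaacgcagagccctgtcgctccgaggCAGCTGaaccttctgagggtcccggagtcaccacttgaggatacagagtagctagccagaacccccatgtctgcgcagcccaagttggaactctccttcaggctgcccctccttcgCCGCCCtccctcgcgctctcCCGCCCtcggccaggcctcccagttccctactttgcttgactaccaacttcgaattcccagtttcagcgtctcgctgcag
Bdnf, chr2:109692186-109692485, plus strand: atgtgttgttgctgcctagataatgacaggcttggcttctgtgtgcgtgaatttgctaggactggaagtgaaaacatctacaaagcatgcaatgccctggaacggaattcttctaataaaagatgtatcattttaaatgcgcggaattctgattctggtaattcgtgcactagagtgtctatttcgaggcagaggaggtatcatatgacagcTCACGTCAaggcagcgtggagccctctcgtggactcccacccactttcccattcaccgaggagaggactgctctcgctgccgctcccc
The Ngfr window held 4 GC boxes and 1 E-box, the Artn window 2 GC boxes and 1 E-box, and the Gfra1 window 1 E-box and 0 GC boxes. CAGCTG occurred in 4 of the 13 windows, and in 16.3% of the 32851 promoter windows of the table. GGGCGG occurred in 5 of the 13 and in 35.7% of the table. The Bdnf window shown, out of 7 for that gene, is the 1 of the 13 with TCACGTCA, which 0.441% of the table held. With 7 of the 13 windows from 1 gene, that share does not measure how unlikely the match was. The full element TGACGTCA (1.79% of the table) and the Egr motifs GCGTGGGCG and GCGGGGGCG (3.47%) were in 0 of the 13, and TGANTCA, the AP-1 motif (7.81%), was in 1 Bdnf window. The motifs were chosen after the expression values were seen, and a match in these letters is not a measured site.

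Gfra1 encodes the alpha receptor for GDNF. Its log2 level was 7.64, 7.85, 8.32 and 8.21 on db/+ 101, 103, 104 and 106, and 7.40, 7.67 and 6.99 on db/+ 105, 404 and 407. In db/db 110, 111, 112, 409, 410 and 411 it was 6.70, 6.77, 6.51, 6.86, 6.48 and 6.06. The lowest db/+ array, 407, was above the highest db/db array, 409. Mean levels were 7.73 ± 0.46 (SD, n = 7) in db/+ and 6.56 ± 0.29 (SD, n = 6) in db/db. Gfra1 fell by 1.16 ± 0.21 (SE) on the log2 scale (limma adjusted p = 0.00168). The fall passed with any 1 array left out. Without the 4 db/+ arrays it was 0.79 (limma adjusted p = 0.0317). Gfra1 stood at −1.22 in arrays 101 to 112 and at −0.86 in arrays 404 to 411, where it did not pass (limma adjusted p = 0.0127 and 0.153).

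Ngfr encodes p75, the receptor that binds every neurotrophin and marks Schwann cells without myelin. Its log2 level was 8.86, 8.59, 7.44 and 7.81 on db/+ 101, 103, 104 and 106 and 6.92, 7.66 and 7.02 on db/+ 105, 404 and 407. In db/db it was 6.21, 6.76, 6.46, 6.75, 6.55 and 6.59 on arrays 110, 111, 112, 409, 410 and 411. The genotypes did not overlap, but the gap was narrow: db/+ 105 stood just above db/db 111. The db/+ arrays spread more than those of db/db, at 7.76 ± 0.74 (SD, n = 7) and 6.55 ± 0.20 (SD, n = 6). Ngfr fell by 1.21 ± 0.29 (SE) on the log2 scale (limma adjusted p = 0.00989), and by 0.65 without the 4 db/+ arrays (limma adjusted p = 0.0467), a change of over 1.5 times in size. With any 1 array left out the fall passed. Within a number series the difference stood at −1.45 in arrays 101 to 112 and −0.71 in arrays 404 to 411 and passed in neither (limma adjusted p = 0.0522 and 0.106).

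Gfra3 encodes the artemin receptor, which in adult ganglia is a gene of pain-sensing neurons. Its level was 8.56, 8.50, 8.19 and 8.44 on db/+ 101, 103, 104 and 106 but 6.90, 7.42 and 7.02 on db/+ 105, 404 and 407. In db/db it ran from 6.75 to 7.14 with a median of 6.88. The other 3 db/+ arrays thus overlapped with db/db, while the 4 stood above both. Over all arrays Gfra3 fell by 0.95 ± 0.28 (SE) on the log2 scale (limma adjusted p = 0.0271). Without the 4 arrays it stood at −0.20 with a 95% confidence interval from −0.52 to 0.11 and did not pass (limma adjusted p = 0.379). The call over all arrays was also lost when any 1 of db/+ 103, 104 or 106 or of db/db 110, 409 or 411 was left out, at differences of −0.94 to −0.85 (limma adjusted p from 0.0524 to 0.0552). The difference was −0.33 in arrays 404 to 411 (limma adjusted p = 0.264), beside −1.18 for arrays 101 to 112 (adjusted p = 0.0611).

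The remaining receptors did not pass over all arrays. Gfra2, the neurturin receptor gene, ranged from 7.80 to 8.25 in db/+ (median 7.95) and from 7.62 to 8.01 in db/db (median 7.75), with much overlap. It stood at −0.18 with a 95% confidence interval from −0.41 to 0.04 (limma adjusted p = 0.207). Ntrk2 encodes TrkB, of which glia and connective tissue make a form without the kinase, and the probe set is not known to separate the forms. Its level was 7.11, 7.55, 7.42, 7.45, 7.47, 7.21 and 6.99 on db/+ 101, 103, 104, 105, 106, 404 and 407 and 7.21, 7.60, 7.78, 7.70, 7.93 and 7.79 on db/db 110, 111, 112, 409, 410 and 411. All db/db arrays except 110 were above all db/+ arrays. Ntrk2 stood 0.36 ± 0.13 (SE) above db/+ and missed the threshold (limma adjusted p = 0.0582), but rose by 0.45 without db/db 110 (limma adjusted p = 0.0167) and by 0.71 in arrays 404 to 411 (adjusted p = 0.0404). In arrays 101 to 112 it stood at 0.13 (limma adjusted p = 0.589). Renewed quantile normalization (0.46, limma adjusted p = 0.0208) and centring each array on its median (0.40, adjusted p = 0.0331) also brought it past the threshold.

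**Figure D2:**
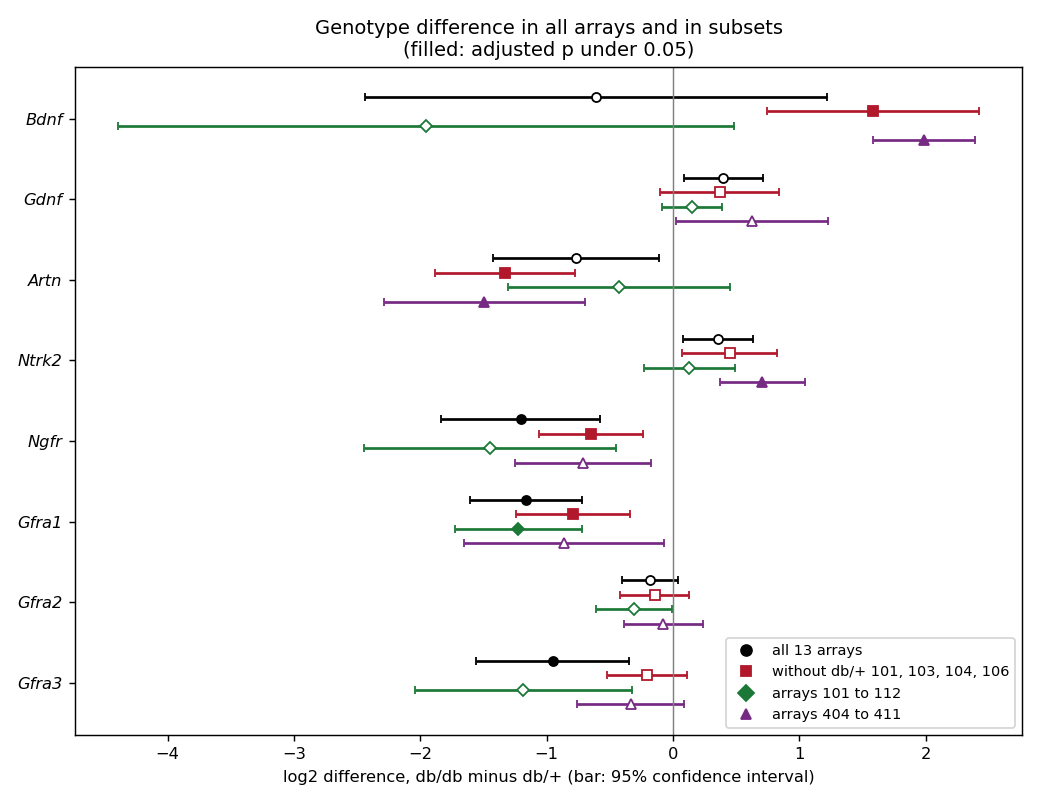
Log2 difference of db/db from db/+ (horizontal axis) with its 95% confidence interval from limma, for each gene in all 13 arrays, without db/+ 101, 103, 104 and 106, in arrays 101 to 112 and in arrays 404 to 411; filled symbols passed an adjusted p of 0.05. Bdnf stands at −0.61 over all arrays and at 1.98 in arrays 404 to 411, and Gfra1 lies below 0 in each set.

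Bdnf, which sensory neurons and Schwann cells make, was the 1 gene of the 8 whose difference changed sign with the set of arrays used. Its log2 level was 8.53, 9.36, 7.12 and 8.04 on db/+ 101, 103, 104 and 106 and 4.19, 4.48 and 4.58 on db/+ 105, 404 and 407, a difference of 3.84 between the means within 1 genotype. The db/db arrays 110, 111, 112, 409, 410 and 411 stood at 4.91, 5.41, 6.17, 6.34, 6.76 and 6.44, above the 3 and below the 4. Over all arrays Bdnf stood at −0.61 ± 0.85 (SE) and did not pass (limma adjusted p = 0.631). With 1 array left out it ran from −1.01 (without db/+ 105) to −0.15 (without db/+ 103), and array weights gave −1.31, with no call in any of these (limma adjusted p from 0.129 to 0.911). In arrays 404 to 411 it rose by 1.98 ± 0.16 (SE) (limma adjusted p = 0.00929), where 4.93% of all genes rose. The 3 db/db arrays there were above both db/+ arrays, as for 22% of all genes. Without the 4 arrays, which were set apart for their neuronal transcripts, Bdnf rose by 1.59 ± 0.37 (SE) (limma adjusted p = 0.0239). Arrays 404 to 411 are all part of that set, so the 2 results are not independent. Both rises start from db/+ levels of 4.19 to 4.58. The mean of Bdnf over all arrays, 6.33, was itself above only 25.4% of genes. Without detection calls, such low levels cannot be separated from background, so the size of the rises is uncertain. In arrays 101 to 112 Bdnf stood at −1.95 (limma adjusted p = 0.229). The genotype differences of the number series differed by 3.94 ± 1.44 (SE), which did not pass over all genes (limma adjusted p = 0.277), and without db/+ 105 by 4.75 (adjusted p = 0.00228). With array weights it was 4.52 (limma adjusted p = 0.0315), and without the 4 arrays 0.68 (adjusted p = 0.892). That test called 0 of the 8 genes, as of all genes (0%; 2360 genes had an unadjusted p below 0.05 by limma).

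Ret, the kinase through which the GDNF family signals, is not one of the 9 genes and is named after its values were seen because it ran beside Bdnf. It was at 11.39, 11.20, 11.04 and 10.83 on db/+ 101, 103, 104 and 106, at 9.33, 8.39 and 8.42 on db/+ 105, 404 and 407, and between 9.85 and 10.35 in db/db. As for Bdnf, the db/db arrays lay between the 2 sets of db/+ arrays with no overlap with either. Ret stood at −0.06 over all arrays (limma adjusted p = 0.945), rose by 1.66 in arrays 404 to 411 (limma adjusted p = 0.0144) and rose by 1.31 without the 4 arrays (adjusted p = 0.00497). The 13 neuronal markers did not share this order: their mean on every db/db array was below that on every db/+ array. Without the 4 arrays 5 of the 13 neuronal markers fell and 0 rose, where 6.78% of all genes fell and 6.12% rose. In arrays 404 to 411 their median difference was −0.54. Of the satellite glia markers, Fabp7, named after its values were seen, ran more like Bdnf and Ret, with means of 12.60 on the 4 arrays, 7.54 on the other 3 and 9.31 in db/db. It stood at 1.78 without the 4 arrays (limma adjusted p = 0.0908), and rose by 1.53 there with the series as a block (adjusted p = 0.0318). The satellite glia list did not follow Fabp7. Without the 4 arrays its median difference was −0.34 and Slc1a3 fell, and with the block Kcnj10 and Slc1a3 fell (median −0.38). The 4 arrays also had actin 3′ minus 5′ differences, a measure of RNA integrity, of 0.96 to 1.40, against 0.40 to 1.14 on the other db/+ arrays and 0.48 to 0.92 in db/db. The part of neuronal content, satellite glia or RNA integrity in the Bdnf and Ret differences was not tested. Nor was the part of RNA integrity in the receptor differences.

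**Figure D3:**
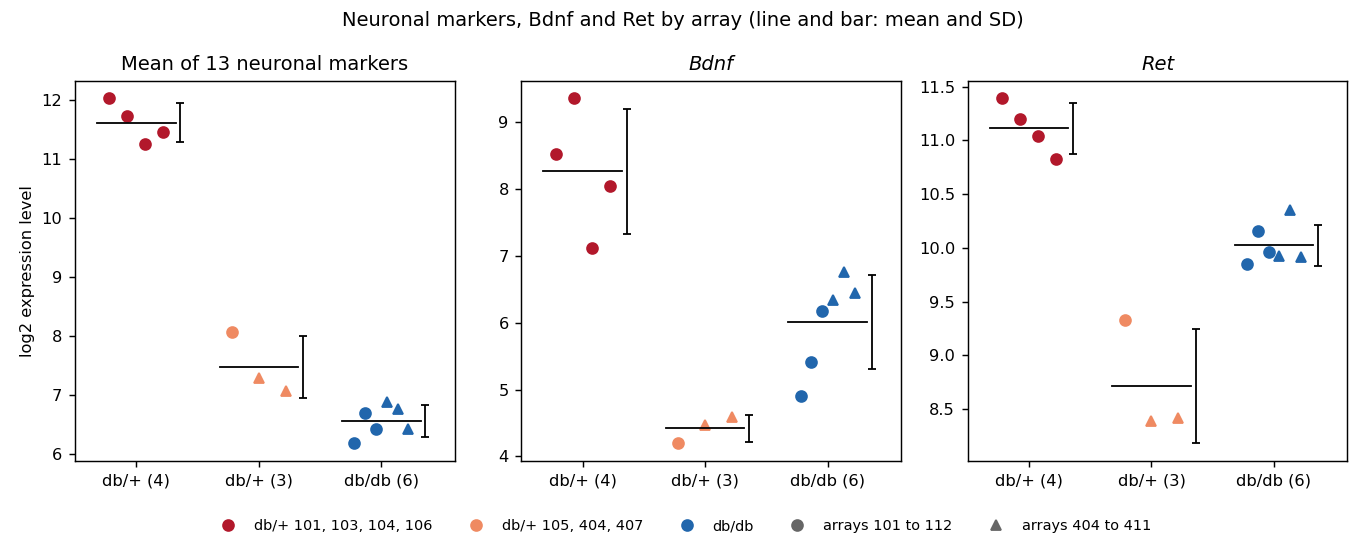
Mean log2 level of 13 neuronal markers, and log2 levels of Bdnf and Ret (vertical axes, 1 scale per panel), on db/+ 101, 103, 104 and 106, the other 3 db/+ arrays and the 6 db/db arrays, with means as lines and SDs as bars; circles are arrays 101 to 112, triangles arrays 404 to 411. The neuronal markers are lowest in db/db, whereas Bdnf and Ret in db/db lie above the 3 and below the 4 db/+ arrays.

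Artn encodes artemin, a ligand for GFR-alpha-3 that injured nerve makes. It was at 6.17, 6.81, 6.12 and 5.32 on db/+ 101, 103, 104 and 106 and at 6.95, 7.68 and 6.64 on db/+ 105, 404 and 407. The db/db arrays 110, 111, 112, 409, 410 and 411 gave 6.08, 6.13, 5.33, 5.57, 5.75 and 5.69. All of these lay below the 3 db/+ arrays, but db/+ 106 was as low as the lowest of them. Artn stood at −0.77 ± 0.30 (SE) over all arrays and missed the threshold (limma adjusted p = 0.0801). It fell by 0.97 when db/+ 106 was left out (limma adjusted p = 0.0184), and by 1.33 ± 0.25 (SE) without the 4 arrays (adjusted p = 0.00877). In arrays 404 to 411 it fell by 1.49, at the edge of the threshold (limma adjusted p = 0.04996), and in arrays 101 to 112 it stood at −0.43 (adjusted p = 0.466).

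Gdnf, the ligand of Gfra1, had a probe set near the bottom of the range, with a mean below that of all but 0.661% of genes. Its level was between 3.26 and 3.59 in db/+, with a median of 3.50, and 3.51, 3.59, 3.74, 4.50, 3.76 and 4.12 on db/db 110, 111, 112, 409, 410 and 411. The db/db arrays 110 and 111 overlapped with db/+ and the other 4 were above it. Gdnf stood 0.40 ± 0.15 (SE) above db/+ and did not pass (limma adjusted p = 0.0606), although it passed without db/db 110 (0.47, limma adjusted p = 0.0389), without db/db 111 (0.45, adjusted p = 0.0495) and with arrays centred on their median (0.45, adjusted p = 0.0363). The values carry no detection calls, so such a level cannot be separated from background.

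The genes closest in profile to the 3 that fell were found next. Likeness was measured as the root mean square difference of log2 levels, each gene first set to its own mean over the 13 arrays. Gfra1 was closest to Hid1 (0.19) and Kank4 (0.22). Ngfr was closest to Cplx2, which encodes a complexin of synaptic vesicle release, and Dclk2, a doublecortin-like kinase gene (0.22 for each). Gfra3 was closest to the GABA-B receptor gene Gabbr1 (0.15) and to Anks1b (0.16), which encodes a postsynaptic protein.

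Several cell type markers also passed over all arrays, where 11.7% of all genes fell and 13.4% rose (25.1% in all). The counts of these short lists are to be read against those shares. Of 13 neuronal markers 12 fell. Of Schwann cell markers 3 of 4 fell, of myelinating Schwann cell markers 5 of 8, and of non-myelinating and repair Schwann cell markers 4 of 8, with 1 higher. Without the 4 db/+ arrays 0 of 4, 0 of 8 and 1 of 8 of these Schwann cell markers passed, where 12.9% of all genes did. The list medians there were −0.67, −0.53 and −0.41, beside −0.65 for Ngfr and −0.79 for Gfra1. The non-myelinating and repair list had means of 8.88 to 9.19 on the 4 db/+ arrays, 7.83 to 8.40 on the other 3 and 7.55 to 8.59 in db/db. Of 5 adipocyte markers 3 rose, with list means of 12.26 to 13.19 in db/+ and 13.42 to 13.53 in db/db, and 2 of 6 macrophage markers rose. Of 4 satellite glia markers 2 fell (Kcnj10 and Slc1a3), and Slc1a3 also fell without the 4 arrays (limma adjusted p = 0.00627). Of 6 fibroblast markers 1 fell (Dcn), and of 5 endothelial markers 1 rose (Cdh5) and 1 fell (Tek). The 3 perineurial, 5 mural cell and 5 skeletal muscle markers did not pass (limma). The part of these cell types in the receptor differences was not tested.

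Other genes of the pathway were taken from 6 lists with 90 entries, of which 73 were measured. Over all arrays 6 rose, 14 fell and 53 did not pass, with a median of 0.02, equal to that of all genes. As 25.1% of all genes passed, this total is near the background, and the counts of the single lists below are to be read against the same share. Of 12 other receptors and coreceptors 5 fell and 1 rose. Gfra4, the persephin receptor gene, had the smallest p among them, and was at 7.29, 7.49, 7.35, 7.34, 7.25, 7.36 and 7.56 on db/+ 101, 103, 104, 105, 106, 404 and 407 and 6.41, 6.35, 6.66, 6.72, 6.28 and 6.68 on db/db 110, 111, 112, 409, 410 and 411. The 4 db/+ arrays did not stand apart from the other 3 for this gene. It fell by 0.86 ± 0.09 (SE) over all arrays (limma adjusted p = 6.45e-05), by 0.90 without the 4 arrays (adjusted p = 0.00312) and by 0.90 in arrays 404 to 411 (adjusted p = 0.0448). Sort1, which encodes sortilin, the partner of p75 for neurotrophin precursors, rose by 0.73 ± 0.14 (SE) (limma adjusted p = 0.0033) and stood at 0.62 without the 4 arrays, where it missed the threshold (adjusted p = 0.0559) unless the series was a block (0.68, adjusted p = 0.016). Ncam1, an alternative coreceptor for GDNF, fell by 1.14 and Lingo1, a partner of p75, fell by 1.17 (limma adjusted p = 0.00884 and 0.0106). Without the 4 arrays both lost their calls, at −0.62 and −0.56 (limma adjusted p = 0.199 and 0.0772), but with the series as a block on those 9 arrays Lingo1 passed (−0.50, adjusted p = 0.0354). Ntrk3 and Sorcs3, the remaining 2 that fell over all arrays, also lost their calls without the 4 arrays (−0.33 and −0.19, limma adjusted p = 0.367 and 0.349). Neither passed there with the series as a block. The other ligand genes Ntf5, Nrtn and Pspn did not pass (limma), at −0.27, 0.10 and 0.22.

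Among 12 measured genes for processing of ligands and shedding of receptors, 4 fell and 0 rose. The tissue plasminogen activator gene Plat, whose product activates the plasmin that can cleave the BDNF precursor, fell by 0.75 ± 0.16 (SE), and the convertase gene Pcsk6 fell by 1.16 ± 0.29 (limma adjusted p = 0.0056 and 0.0114). Mmp9, a matrix protease gene, fell by 1.33 ± 0.29 (SE), and A2m, which encodes the protease inhibitor alpha-2-macroglobulin, fell by 1.67 ± 0.35 (limma adjusted p = 0.00568 and 0.0045). Plat, Pcsk6 and Mmp9 also passed without the 4 db/+ arrays, where Pcsk6 stood at −1.70 and Mmp9 at −1.86, and in arrays 404 to 411, at −0.91, −1.33 and −1.74 (limma adjusted p between 0.00358 and 0.0335 for these). In arrays 101 to 112 alone Pcsk6 passed at −1.38, while Plat at −0.75 and Mmp9 at −1.19 did not (limma adjusted p = 0.0134, 0.0553 and 0.0735). A2m stood at −1.24 and lost its call without the 4 arrays (limma adjusted p = 0.0743).

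Of 25 measured genes for proteins that carry the receptor signal inside the cell, 3 rose and 3 fell. The phosphatase gene Ptpn11, which carries signals from Trk and Ret to the MAP kinase pathway, rose by 0.61 ± 0.10 (SE) (limma adjusted p = 0.000986). Every db/db array was above every db/+ array for Ptpn11, as for 6.17% of all genes. The docking protein gene Frs3 fell by 0.82, and Bex3, whose product binds the death domain of p75, fell by 0.72 (limma adjusted p = 0.00271 and 0.0045). Shc3, a neuronal adaptor gene, rose by 0.35 (limma adjusted p = 0.0195). Without the 4 db/+ arrays Ptpn11 rose by 0.50 and Frs3 fell by 0.58 (limma adjusted p = 0.0253 and 0.0499), while Bex3 and Shc3 stood at −0.43 and 0.31 and missed the threshold (adjusted p = 0.0629 and 0.142). Bex3 passed on those 9 arrays with the series as a block (−0.46, limma adjusted p = 0.0342). Of 8 feedback inhibitors of receptor tyrosine kinases, Spry4 rose by 0.68 ± 0.14 (SE) and 7 did not pass (limma adjusted p = 0.00472). It rose by 0.80 without the 4 arrays (limma adjusted p = 0.0216).

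Among 13 measured genes of other trophic factors and their receptors, 1 rose and 2 fell. Hgf, the hepatocyte growth factor gene, rose by 1.01 ± 0.18 (SE), from 5.74 ± 0.41 (SD, n = 7) in db/+ to 6.75 ± 0.23 (SD, n = 6) in db/db with no overlap (limma adjusted p = 0.00177). Such a separation, higher in db/db, held for 6.17% of all genes. Ptn, which encodes the neurite-promoting factor pleiotrophin, fell by 1.87 ± 0.40 (SE) over all arrays (limma adjusted p = 0.00521) and by 0.94 without the 4 arrays (adjusted p = 0.0377). Lif, the leukaemia inhibitory factor gene, fell by 0.48 (limma adjusted p = 0.049), a call that the series as a block ended (−0.45, adjusted p = 0.0671). Without the 4 arrays Lif stood at −0.57 and missed the threshold (limma adjusted p = 0.0684), but passed there with the block (−0.62, adjusted p = 0.0268).

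**Figure D4:**
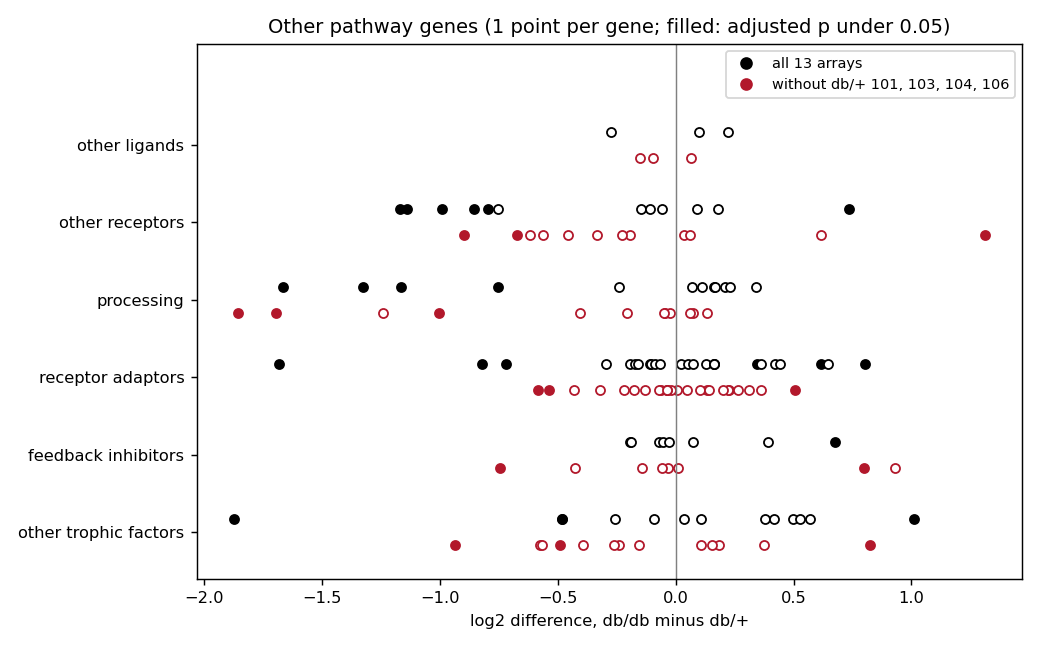
Log2 difference of db/db from db/+ (horizontal axis) for the 73 measured genes of the 6 other pathway lists, 1 point per gene, over all 13 arrays and without db/+ 101, 103, 104 and 106; filled points passed an adjusted p of 0.05. Of the 73 genes 6 rose and 14 fell over all arrays, and 4 rose and 10 fell without the 4 arrays, where 25.1% and 12.9% of all genes passed.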

How the data were processed

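Total RNA of sciatic nerve was amplified, biotin-labelled and hybridised to 1-colour arrays, per the labels' protocols. Values were deposited as log2 levels. The authors used RMA, as the submitters' processing notes state. RMA normalizes arrays to each other and compresses differences of dim genes. Nothing used here gives its version or how probe sets were defined. The number of arrays limits the precision.

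The table held 15479 probe sets. Leaving out 42 controls gave 15437 genes, of which a platform table named 14801. Arrays were grouped by the genotype in their titles. Genotype was fitted with limma 3.58.1 (lmFit, then eBayes, under R 4.3.3). Its p-values are two-sided and were adjusted over all genes by the Benjamini-Hochberg method. The interaction of genotype with number series was fitted likewise. On simulated data for the 13 arrays and 15437 genes, the genotype fit recovered 75% of log2 changes of 1 and 98% of those of 2. Of its 182 calls 9 were false. The simulated noise was normal and independent between genes and arrays, without the split among the db/+ arrays. These rates therefore need not hold for the real arrays.

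The members, the lists and the 4 db/+ arrays set apart were chosen with earlier results of these data known. Named are all members, Lepr, up to 4 genes with the smallest p among those past the threshold in each of the 6 pathway lists, and for each member past the threshold the 2 genes nearest in profile. Ret, Ntrk3, Sorcs3, the other ligands and genes named in the closing section were added after their values were seen. Alternatives covered moderation, normalization, a filter on dim genes (below the 25th percentile), array weights, the number series and leaving out arrays. Tables and figures used Python 3.11.15, pandas 2.3.3, numpy 2.4.6 and matplotlib 3.10.9.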

Additional observations from a re-analysis of the deposited data

How the results depend on the processing

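No paired analysis was possible because the genotypes share no sample number. The number of genes past the threshold was 3867 over all arrays, 6525 with array weights, 1404 in arrays 404 to 411, 1992 without the 4 db/+ arrays, and 2893 to 4529 with 1 array left out. The number series test called 0 genes, but 767 with array weights and up to 1311 with 1 array left out (without db/+ 105; 72 without db/+ 404, 4 without db/db 112, 1 without db/+ 407, 0 for the other 9). Members called lower numbered 3, and 1 in arrays 101 to 112 (Gfra1) or 404 to 411 (Artn), and 2 or 3 with 1 array left out. Members called higher numbered 0, but 1 with renewed quantile normalization or without dim genes (Ntrk2), 2 with median centring or array weights (Gdnf, Ntrk2), 2 in arrays 404 to 411 (Bdnf, Ntrk2), 1 without the 4 arrays and 1 there with the series as a block (Bdnf in both), and 0 to 2 with 1 array left out. Bdnf turned from −0.61 to 1.98 in arrays 404 to 411, to 1.59 without the 4 arrays, and to 1.72 with the series as a block on those 9 arrays. Ret turned from −0.06 to 1.66, 1.31 and 1.27 in the same sets, to 0.18 with the series as a block on all arrays, and with 1 array left out ran from −0.34 to 0.16. The filter on dim genes left Gdnf and Artn untested. The cause of these changes was not tested. Depth has no meaning for arrays. Without detection calls, Gdnf in particular may be at background, as may Bdnf on db/+ 105, 404 and 407.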

Other observations

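Without the 4 db/+ arrays high in neuronal transcripts, 4 of the 73 measured pathway genes rose and 10 fell. In that set 6.12% of all genes rose and 6.78% fell (12.9% in all). Besides Ret, which rose, 4 of the pathway genes called there had not passed over all arrays, all lower in db/db. The p75-like gene Nradd fell by 0.67, the adaptor gene Sh2b3 by 0.54, Lrig3, a transmembrane relative of the growth factor receptor inhibitor Lrig1, by 0.75, and Il6st, the shared receptor chain of the interleukin-6 family, by 0.49 (limma, Benjamini-Hochberg adjusted p = 0.00661, 0.0247, 0.0417 and 0.0366). Il6st also passed over all arrays with the number series as a block (−0.33, limma adjusted p = 0.0215).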
